A study of Rattus norvegicus with 30 samples.

Results

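The genes described here make leukotrienes, lipoxygenase products and thromboxane from arachidonic acid, or bind leukotrienes at the cell surface. They were taken by name from the gene symbols of the deposited table: Alox5, Alox5ap, Alox15, Lta4h, Ltc4s, Pla2g4a, Cysltr1, Ltb4r and Tbxas1. All 9 were among the 13124 genes of the table, and 8 were among the 12558 genes that passed the expression filter, which asked for a mean of at least 3 CPM (counts scaled to 1000000 per tendon) in at least 1 group. Ltb4r did not reach that level and is given by its values. For the CPM values given below, the total counts of each tendon were first multiplied by a trimmed-mean (TMM) scaling factor. It was 0.599 to 0.788 in tendons without surgery and 0.950 to 1.10 in repaired tendons.

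RNA was sequenced from 30 plantaris tendons of 3-month-old male Sprague Dawley rats, taken after the tendon had been cut and sutured or from rats that had no surgery. Repaired rats received GSK2894631A, an inhibitor of hematopoietic prostaglandin D synthase (HPGDS), by oral gavage 2 times daily at 0, 2 or 6 mg/kg, and the 0 mg/kg rats were gavaged with vehicle. The control group (n = 3) had neither surgery nor the compound, and no vehicle gavage is described for it, so surgery and gavage cannot be told apart when a repaired group is set against it. The repaired groups were collected after 7 days (7D 0 mg/kg, n = 5, 7D 2 mg/kg, n = 4, and 7D 6 mg/kg, n = 3) or 21 days (21D 0, 2 and 6 mg/kg, n = 5 each). RNA came from bulk tissue of the tendon, so fewer cells of a type and less RNA per cell cannot be told apart.

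Cytosolic phospholipase A2 frees arachidonic acid from membranes. The 5-lipoxygenase enzyme, helped by its activating protein, turns it into leukotriene A4, which is then hydrolysed to leukotriene B4, an attractant of neutrophils, or joined to glutathione to give the cysteinyl leukotrienes, which act on vessels and smooth muscle. Thromboxane synthase and the prostaglandin D synthases instead share prostaglandin H2, made from the same arachidonic acid by the cyclooxygenases, and in injured tissue much of this chemistry is carried out by myeloid cells and platelets.

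Total gene counts ranged from 12405741 to 49909374 per tendon. Of 10 listed tendon markers 9 were in the table. They made up 0.669 to 3.17% of the counts of the control tendons, with summed levels of 11177 to 42986 CPM. Genes of skeletal muscle fibres made up 19.2 to 27.5% of the counts of the control tendons and at most 9.61% of those of any repaired tendon, and 25 of 25 tested were lower in the 7D 0 mg/kg group. Leukocyte markers went the other way, with 9 of 10 higher at 7D 0 mg/kg and summed levels of 144 to 443 CPM in control against 639 to 3106 CPM in repaired tendons. Of the other lists at 7D 0 mg/kg, 9 of 12 macrophage, 5 of 6 neutrophil, 1 of 8 mast cell, 1 of 4 platelet, 3 of 7 endothelial and 0 of 4 red blood cell genes were higher and none was lower. Over all genes tested, 35.8% were called higher and 35.6% lower in that comparison. The platelet and endothelial counts lay near that share, and the mast cell and red blood cell counts below it. In the tendon list 1 of 9 was higher and 4 were lower, and the 6 eosinophil genes were not among the genes analysed here. The muscle share was used as a covariate below, and the part of the other lists in the differences between repaired and control tendons was not tested.

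The promoters of the 3 members that rose in every repaired group are shown with that of Alox5, the enzyme for which the leukotriene route is named. Alox5 passed the test in no repaired group in the main edgeR fit of all 30 tendons. Each runs from 250 bases before to 50 bases after the RefSeq start site in build GRCr8, 5′ to 3′ on the gene's own strand. Capitals mark GAGGAA, the core letters bound by the myeloid factor PU.1, the GC box GGGCGG, and the TATA box TATAAA, searched on both strands, so that their reverse complements are also in capitals. The Tbxas1 promoter is at chr4:68631635-68631934 on the plus strand, that of Lta4h at chr7:29856621-29856920 on the plus strand, that of Pla2g4a at chr13:64572303-64572602 on the minus strand and that of Alox5 at chr4:151251077-151251376 on the minus strand.
Tbxas1: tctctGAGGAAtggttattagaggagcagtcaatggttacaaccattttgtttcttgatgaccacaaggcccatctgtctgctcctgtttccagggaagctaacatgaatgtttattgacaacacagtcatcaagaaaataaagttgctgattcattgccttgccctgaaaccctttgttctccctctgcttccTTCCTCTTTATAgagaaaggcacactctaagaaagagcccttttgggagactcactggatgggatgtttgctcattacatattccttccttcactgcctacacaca
Lta4h: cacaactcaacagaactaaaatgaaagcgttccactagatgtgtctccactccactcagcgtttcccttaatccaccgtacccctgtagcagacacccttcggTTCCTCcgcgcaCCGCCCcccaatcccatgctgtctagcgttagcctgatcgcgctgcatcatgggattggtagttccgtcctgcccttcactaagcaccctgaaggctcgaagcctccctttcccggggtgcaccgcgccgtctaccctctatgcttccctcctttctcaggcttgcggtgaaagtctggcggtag
Pla2g4a: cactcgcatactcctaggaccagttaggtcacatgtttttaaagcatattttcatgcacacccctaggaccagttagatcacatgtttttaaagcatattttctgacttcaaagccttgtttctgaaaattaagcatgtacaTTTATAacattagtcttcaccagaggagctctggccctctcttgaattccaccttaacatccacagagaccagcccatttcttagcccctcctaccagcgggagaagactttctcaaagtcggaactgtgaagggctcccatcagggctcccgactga
Alox5: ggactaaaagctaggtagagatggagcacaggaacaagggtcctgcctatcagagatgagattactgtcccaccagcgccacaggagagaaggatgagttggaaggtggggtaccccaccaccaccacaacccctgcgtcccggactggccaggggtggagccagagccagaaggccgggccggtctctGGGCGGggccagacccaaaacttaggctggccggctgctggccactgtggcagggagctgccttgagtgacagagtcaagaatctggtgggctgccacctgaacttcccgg

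Tbxas1 held 2 GAGGAA matches, at -245 and, reversed, at -56 from the start site, the second directly followed by a reversed TATAAA. Lta4h held 1 reversed GAGGAA at -147 and 1 reversed GC box at -135, Pla2g4a held only a reversed TATAAA at -108, and Alox5 held only a GC box at -61. Over the 33469 rat promoters of the same length, 27.6% held GAGGAA, 33.1% GGGCGG and 14.2% TATAAA on either strand, so each of these matches was of a common kind. A promoter could be matched for 6 of the 9 members, and among the other 2 of these Ltb4r held 2 reversed GAGGAA and Ltc4s none of the 3 motifs. No match was made for Alox15, Alox5ap and Cysltr1.

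In the first days after repair the question was how the tissue differed from uninjured tendon. In the 7D 0 mg/kg group 3 of the 8 tested members rose, Lta4h, Pla2g4a and Tbxas1, and none fell. That is 37.5% of the members against 35.8% of all genes tested that were called higher in the same comparison, so the count is near the share over all genes. The same 3 genes rose in all 6 repaired groups, and Ltc4s joined them in both 2 mg/kg groups. These calls depended on whether the fit held a muscle term. With the share of skeletal muscle counts as a covariate, none of them remained at 7D 2 or 7D 6 mg/kg, Lta4h alone did at 7D 0, 21D 0 and 21D 6 mg/kg, and Lta4h, Pla2g4a and Tbxas1 did at 21D 2 mg/kg. All 6 comparisons share the 3 control tendons, and a gene was called where its p-value in the quasi-likelihood F-test of edgeR, adjusted by the Benjamini-Hochberg method over all 12558 genes, was under 0.05.

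**Figure D1:**
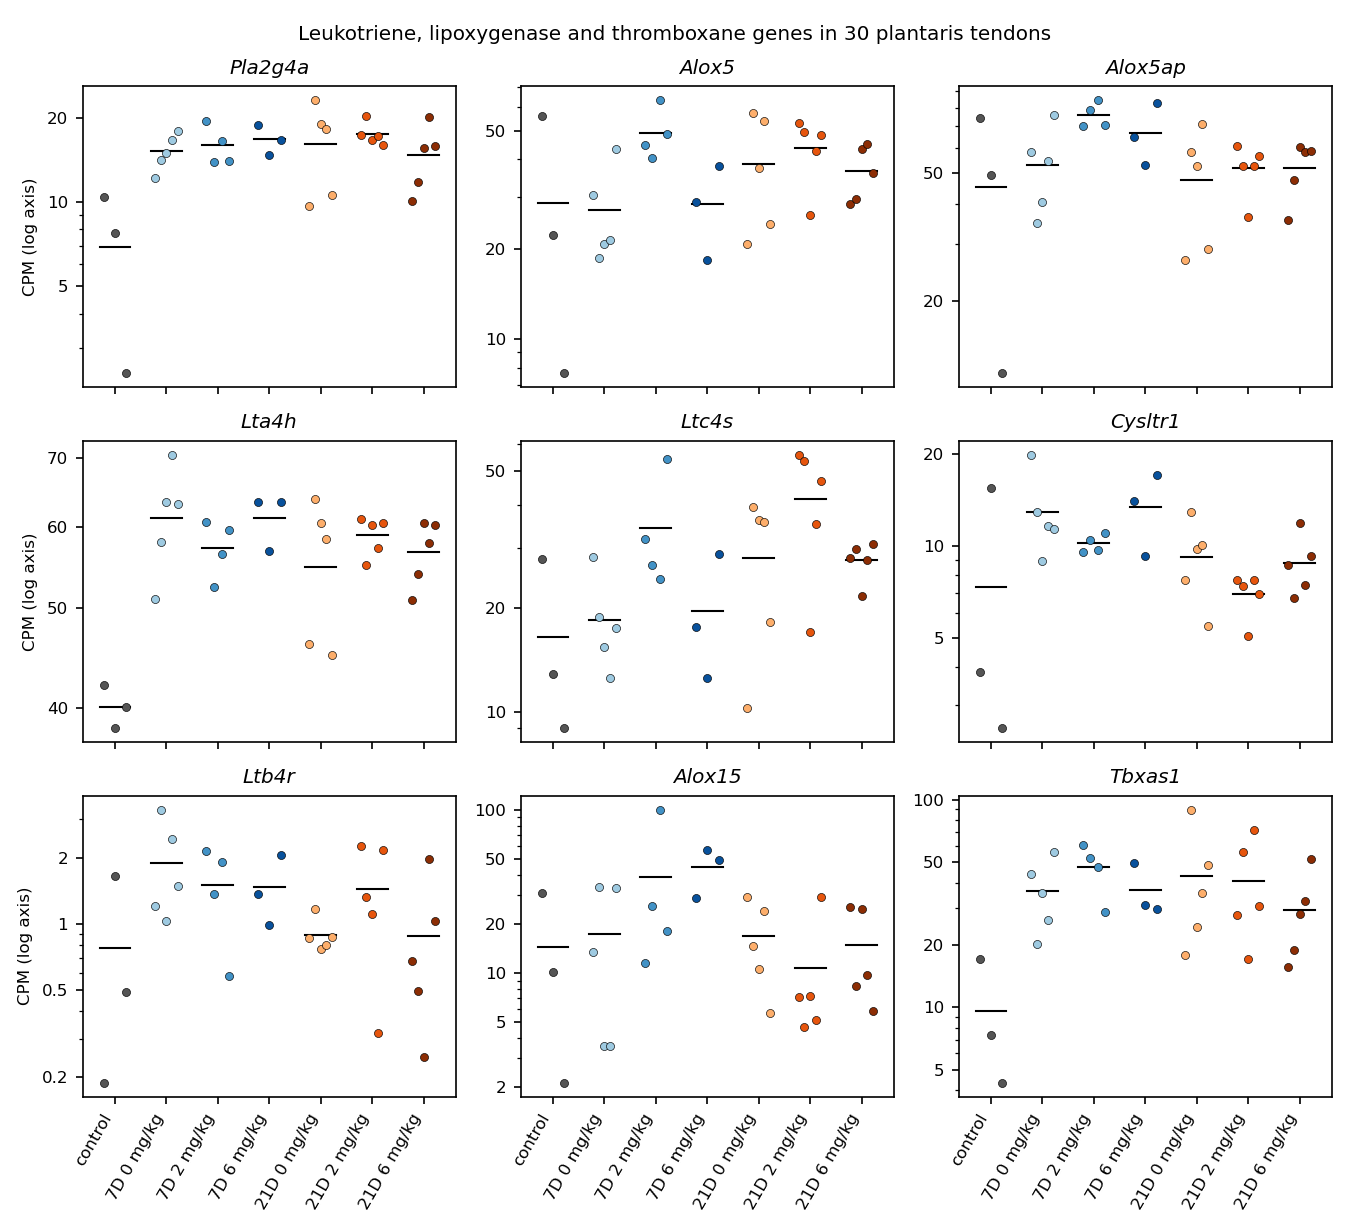
Level of each member in CPM (log axis, a different range in each panel) in the 30 tendons by group, with 1 point per tendon and a bar at the group mean. Lta4h lies lower in the 3 control tendons (38.2 to 42.0 CPM) than in any repaired tendon, while control tendons span a wide range for most other members.

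Pla2g4a (ENSRNOG00000002657, chromosome 13, spanning 217757 bases in rn6) encodes the cytosolic phospholipase A2 that releases arachidonic acid. It stood at 10.5, 7.78 and 2.45 CPM in control tendons, against 12.3, 14.2, 15.0, 16.8 and 18.0 CPM in the vehicle-treated tendons at 7 days. Those at 7D 2 mg/kg gave 19.5, 13.9, 16.6 and 14.0 CPM and those at 7D 6 mg/kg 18.9, 14.8 and 16.8 CPM. Every 7-day tendon was above every control tendon, although the control values themselves differed more than 4-fold. At 21 days the 0 mg/kg tendons ranged from 9.70 to 23.3 CPM, those at 2 mg/kg from 16.0 to 20.3 CPM and those at 6 mg/kg from 10.1 to 20.2 CPM. The lowest 21-day tendons at 0 and 6 mg/kg thus lay within the control range. Against control the log2 difference was 1.12 ± 0.31 (SE) at 7D 0 mg/kg (adjusted p = 0.00249, edgeR F-test, Benjamini-Hochberg adjusted), and it lay between 1.07 and 1.33 in the other 5 groups, the largest being 21D 2 mg/kg (adjusted p = 0.000635). When each comparison was fitted on its own groups alone, the adjusted p rose to 0.0602 at 7D 6 mg/kg, 0.0642 at 21D 0 mg/kg and 0.0695 at 21D 6 mg/kg. With the muscle covariate the difference was 0.51 (adjusted p = 0.271) at 7D 0 mg/kg, 0.01 (0.990) at 7D 2 mg/kg, 0.09 (0.932) at 7D 6 mg/kg, 0.76 (0.0574) at 21D 0 mg/kg and 0.70 (0.0650) at 21D 6 mg/kg, and it passed at 21D 2 mg/kg alone (0.93, 0.0172).

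Alox5 (ENSRNOG00000012972, chromosome 4), the 5-lipoxygenase, did not pass the test against control in any repaired group in the main edgeR fit of all 30 tendons. Control tendons held 56.0, 22.3 and 7.68 CPM, and 7D 0 mg/kg tendons 30.5, 18.7, 20.8, 21.5 and 43.4 CPM. The 7D 2 mg/kg tendons were the highest as a group, at 44.6, 40.3, 63.5 and 48.6 CPM, and 7D 6 mg/kg tendons held 28.7, 18.3 and 38.0 CPM. The control group alone spanned most of the range of all 30 tendons, so that it overlapped with every repaired group. Group means at 21 days were 38.7 ± 16.6 (SD, n = 5), 43.8 ± 10.7 and 36.5 ± 7.71 CPM at 0, 2 and 6 mg/kg. The log2 difference from control ran from -0.10 (95% interval -0.94 to 0.75) at 7D 0 mg/kg to 0.77 (-0.13 to 1.68) at 7D 2 mg/kg. This rested on control replicate 2, the highest of that group, since without it Alox5 passed at 7D 2 mg/kg (1.64, adjusted p = 0.00275, edgeR F-test) and at each dose at 21 days (1.29, 1.45 and 1.20 at 0, 2 and 6 mg/kg, adjusted p = 0.0122, 0.00529 and 0.0186). In the 2 mg/kg groups it also passed with limma-trend (adjusted p = 0.0206 at 7 and 0.0401 at 21 days) and with scaling to library size alone (0.0155 and 0.0314).

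Alox5ap (ENSRNOG00000000907, chromosome 12), whose product presents arachidonic acid to 5-lipoxygenase, followed Alox5 from tendon to tendon. It stood at 74.1, 49.3 and 11.9 CPM in control tendons, in the same order as Alox5, and at 70.2 to 84.7 CPM in the 7D 2 mg/kg tendons. Its mean was 52.9 ± 16.1 CPM at 7D 0 mg/kg, 66.9 ± 15.1 CPM at 7D 6 mg/kg and 47.5 to 52.0 CPM in the 3 groups at 21 days. No difference from control passed the test in the main edgeR fit, the largest being 0.75 ± 0.39 (SE, log2) at 7D 2 mg/kg, with an adjusted p of 0.0870 in the edgeR F-test after Benjamini-Hochberg adjustment. Without control replicate 2 it passed at 7D 2 mg/kg (1.24, adjusted p = 0.0120) and 7D 6 mg/kg (1.07, adjusted p = 0.0333), as it did there with library size alone (adjusted p = 0.00921 and 0.0261) and, at 7D 2 mg/kg, with limma-trend (0.0180). Over the 30 tendons the log2 CPM of the pair had a Pearson r of 0.82, and 0.94 once group means were removed, while over the 27 repaired tendons it was 0.69, below the 0.77 of Alox5 with Ltc4s and the 0.74 of Lta4h with Pla2g4a. These points share the library of each tendon, and the correlation is given as a description.

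Lta4h (ENSRNOG00000004494, chromosome 7, spanning 31871 bases), the hydrolase that makes leukotriene B4, rose least of the members that were called and had the narrowest range of all 9, 1.85-fold over the 30 tendons. Control tendons held 42.0, 38.2 and 40.0 CPM. The 7D 0 mg/kg tendons held 51.0, 58.0, 63.5, 70.6 and 63.1 CPM, and across the other repaired groups the values ran from 45.0 to 63.9 CPM. All 27 repaired tendons exceeded all 3 control tendons. The difference was 0.61 ± 0.11 (SE, log2), or 1.53-fold, at 7D 0 mg/kg (adjusted p = 2.09e-05, edgeR F-test, Benjamini-Hochberg adjusted). It was 0.45 to 0.61 in the other groups, lowest at 21D 0 mg/kg (adjusted p = 0.000767). With the muscle covariate it fell to 0.04 (adjusted p = 0.918) at 7D 2 mg/kg and 0.14 (0.676) at 7D 6 mg/kg, and it still passed in the other 4 groups, at 0.28 to 0.40. Among all genes tested, 31.2% were non-overlapping and higher at 7D 0 mg/kg and 25.9% at 21D 6 mg/kg. Of the 8 tested members, 3 were non-overlapping and higher in each 7-day group, and 2, 2 and 1 at 21 days for 0, 2 and 6 mg/kg, where the background was 25, 29.5 and 25.9%. At 7D 2 and 7D 6 mg/kg it was 30.1 and 34.6%.

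Ltc4s (ENSRNOG00000003244, chromosome 10, spanning 1962 bases), the synthase that conjugates leukotriene A4 with glutathione, passed the test in both 2 mg/kg groups, with calls that single tendons could end. Control tendons held 27.8, 12.9 and 8.99 CPM, the 7D 0 mg/kg tendons 28.1, 18.8, 15.4, 12.6 and 17.5 CPM, and the 7D 2 mg/kg tendons 31.7, 26.6, 24.4 and 54.3 CPM. At 21 days the 2 mg/kg tendons held 55.9, 53.5, 17.0, 35.2 and 46.7 CPM. 4 of these 5 were above the highest control tendon and 1 was not, and in the 7D 2 mg/kg group 2 of 4 were. The log2 difference from control was 1.04 ± 0.44 (SE) at 7D 2 mg/kg and 1.33 ± 0.43 at 21D 2 mg/kg (adjusted p = 0.0397 and 0.00892, edgeR F-test, Benjamini-Hochberg adjusted). Those groups had 4 of 8 members called higher, where 35.8 and 33.8% of all genes were. The other groups had means of 18.5 to 27.9 CPM, and their differences of 0.15 to 0.75 did not pass in the main edgeR fit. Ltc4s did pass at 21D 0 and 21D 6 mg/kg without control replicate 2 (1.28 and 1.27, adjusted p = 0.0228 and 0.0253, edgeR F-test) and with library size alone (adjusted p = 0.0121 and 0.0178), and at 21D 0 mg/kg without 21D 0 mg/kg replicate 1 (0.0381). The 7-day call was lost without control replicate 3, control replicate 4 or 7D 2 mg/kg replicate 5 (adjusted p up to 0.206), and the 21-day call without control replicate 4 (0.0792). With the muscle covariate neither passed, at 0.45 (adjusted p = 0.770) and 1.14 (0.0511), nor did the 7-day difference when fitted on its own groups alone (0.0749).

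Of the leukotriene receptors in the list, Cysltr1 passed the expression filter, at group means of 6.95 to 13.4 CPM, and Ltb4r did not. Cysltr1 (ENSRNOG00000037845, chromosome X), the receptor for cysteinyl leukotrienes, stood at 3.87, 15.5 and 2.53 CPM in control tendons. The 7D 0 mg/kg tendons held 19.8, 12.9, 8.90, 11.6 and 11.3 CPM and the 7D 6 mg/kg tendons 14.0, 9.24 and 17.0 CPM. Control replicate 3 was above all but 2 of the 27 repaired tendons, and the other control tendons were below all of them. The log2 difference from control was 0.80 ± 0.38 (SE) at 7D 0 mg/kg and 0.86 ± 0.42 at 7D 6 mg/kg, short of the threshold (adjusted p = 0.0605 and 0.0688, edgeR F-test, Benjamini-Hochberg adjusted). With limma-trend it passed in all 3 of the 7-day groups (adjusted p = 0.00494, 0.0364 and 0.00825 at 0, 2 and 6 mg/kg). Without control replicate 3 Cysltr1 passed in all 6 comparisons, and its difference at 21D 2 mg/kg turned from -0.09 to 1.14 (adjusted p = 0.00338). That control tendon also held the highest summed level of mast cell genes of the group, 121 CPM against 12.4 and 27.7 CPM. Over 30 tendons the r of Cysltr1 was 0.63 with mast cell, 0.61 with neutrophil, 0.59 with macrophage and 0.59 with leukocyte sums. Over the 27 repaired tendons these were 0.44, 0.67, 0.44 and 0.49. The part of any of these cells in the Cysltr1 level was not tested.

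Ltb4r (ENSRNOG00000020399, chromosome 15, spanning 1056 bases), the high-affinity receptor for leukotriene B4 on neutrophils and other leukocytes, was low in every group, with few counts in some tendons. It had 4 to 41 counts in control tendons, or 0.774 ± 0.768 CPM (SD, n = 3). The highest group mean was 1.90 ± 0.960 CPM at 7D 0 mg/kg (37 to 121 counts) and the lowest repaired mean was 0.885 CPM at 21D 6 mg/kg. Groups overlapped throughout, and in a fit without the expression filter the difference at 7D 0 mg/kg was 1.27 on the log2 scale with an adjusted p of 0.0833 in the edgeR F-test after Benjamini-Hochberg adjustment.

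Alox15 (ENSRNOG00000019183, chromosome 10, spanning 8471 bases), the 12/15-lipoxygenase that acts in reticulocytes and some macrophages, was the most variable member, from 2.12 to 100 CPM over the 30 tendons. Control tendons held 30.9, 10.2 and 2.12 CPM, 7D 0 mg/kg tendons 13.4, 33.5, 3.58, 3.57 and 33.3 CPM, 7D 2 mg/kg tendons 11.5, 25.7, 100 and 18.0 CPM, and 7D 6 mg/kg tendons 28.7, 56.6 and 49.0 CPM. The values within most groups differed several-fold, and no group stood apart from control. The largest difference from control was 1.62 ± 0.96 (SE, log2) at 7D 6 mg/kg, with an adjusted p of 0.136 in the edgeR F-test after Benjamini-Hochberg adjustment, and the 95% interval ran from -0.35 to 3.59. Without control replicate 2 Alox15 passed at 7D 2 mg/kg (2.55, adjusted p = 0.0438) and 7D 6 mg/kg (2.76, adjusted p = 0.0361), and at 7D 6 mg/kg it also passed with limma-trend (0.0374) and with library size alone (0.0484).

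The level of Alox15 followed that of red blood cell genes. The genes most like it over the 30 tendons were Alas2 (Pearson r = 0.96 of log2 CPM, and 0.96 with group means removed), the first enzyme of heme synthesis in red cell precursors, and Slc4a1 (0.95 and 0.95), the anion exchanger of the red cell membrane. While Alox15 varied 47.3-fold, its CPM ratio to Alas2 varied 2.72-fold. The summed level of 4 red blood cell genes went from 915 to 14775 CPM in the 7D 0 mg/kg group alone and from 1282 to 10550 CPM in the control group, and its r with Alox15 was 0.92. None of the 4 passed the test against control in any repaired group. With macrophage and leukocyte sums Alox15 had r values of 0.30 and 0.25. The points share libraries and their depth, and the part of blood in the Alox15 level was not tested further.

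**Figure D2:**
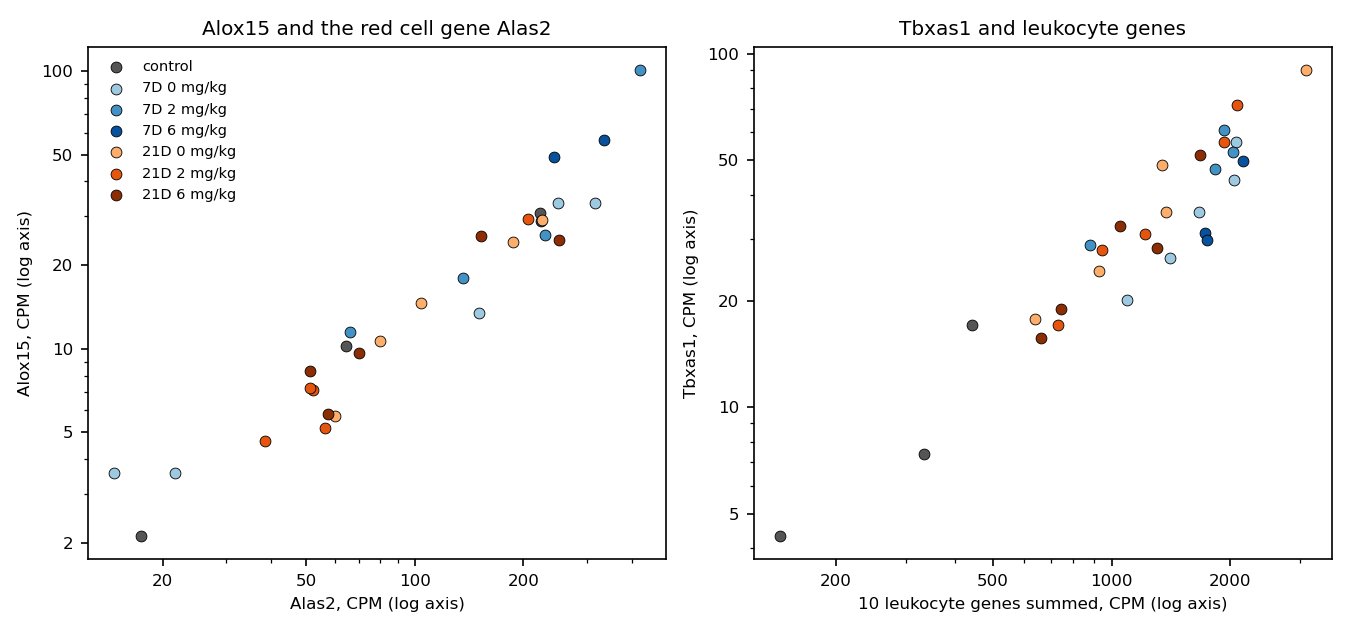
Left, Alox15 against Alas2 in CPM, and right, Tbxas1 against the summed CPM of 10 leukocyte genes, with both axes logarithmic and 1 point per tendon coloured by group. Alox15 and Alas2 form 1 band in which groups intermix (r = 0.96), while the 3 control tendons lie at the low end of the Tbxas1 band.

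Tbxas1 (ENSRNOG00000007918, chromosome 4, spanning 176188 bases), thromboxane synthase, rose most of the members. Control tendons held 17.1, 7.38 and 4.33 CPM, and 7D 0 mg/kg tendons 44.1, 20.2, 35.8, 26.4 and 56.4 CPM. The 7D 2 mg/kg tendons held 60.8, 52.7, 47.3 and 28.8 CPM, and the 7D 6 mg/kg tendons 49.9, 31.1 and 29.8 CPM. No 7-day tendon overlapped with the control group. The 21-day groups were more scattered, with 17.8, 89.9, 24.3, 35.7 and 48.5 CPM at 0 mg/kg, 27.9, 56.4, 17.0, 71.6 and 31.0 CPM at 2 mg/kg and 15.7, 19.0, 28.2, 32.6 and 51.7 CPM at 6 mg/kg. 1 tendon at 2 mg/kg and 1 at 6 mg/kg fell within the control range. The log2 difference from control was 1.92 ± 0.55 (SE) at 7D 0 mg/kg, or 3.77-fold (adjusted p = 0.00331, edgeR F-test, Benjamini-Hochberg adjusted). It was highest at 7D 2 mg/kg, at 2.29 ± 0.57 (adjusted p = 0.00106), and lowest at 21D 6 mg/kg, at 1.60 ± 0.54 (adjusted p = 0.0125, and 0.0843 without control replicate 4). With the muscle covariate the direction turned at 7D 2 mg/kg (-0.24, adjusted p = 0.881) and 7D 6 mg/kg (-0.57, 0.695). The call was then also lost at 7D 0 mg/kg (0.56, 0.451), 21D 0 mg/kg (1.17, 0.0554) and 21D 6 mg/kg (0.75, 0.211), and kept at 21D 2 mg/kg (1.22, 0.0452).

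Tbxas1 went with general leukocyte content. Its log2 CPM had an r of 0.95 with the summed leukocyte genes and 0.93 with the summed macrophage genes over 30 tendons, and the genes most like it were Cybb (r = 0.97, and 0.95 over the 27 repaired tendons), the catalytic subunit of the phagocyte NADPH oxidase, and Ptpro (0.97 and 0.94), a receptor tyrosine phosphatase. Its ratio to Cybb was 0.107 to 0.191 in control tendons and 0.0326 to 0.105 in repaired tendons, so in each control tendon there was more Tbxas1 for a given level of Cybb than in any repaired one. Its ratio to Ptprc, which encodes the pan-leukocyte antigen CD45, was 0.271 to 0.445 in control and 0.140 to 0.360 in repaired tendons, which overlapped. Platelets, another source of thromboxane, were represented by a summed level of 28.2 to 216 CPM in control and 142 to 943 CPM in repaired tendons. Of the listed genes Pf4 ran up to 687 CPM, in 21D 0 mg/kg replicate 1. Itga2b ran up to 297, Gp9 to 19.1 and Gp1ba to 12.3 CPM, all in 21D 2 mg/kg replicate 3. With the summed platelet genes Tbxas1 had an r of 0.39 over 30 tendons and -0.25 over the 27 repaired tendons. Its level was 17.8 CPM in 21D 0 mg/kg replicate 1 and 17.0 CPM in 21D 2 mg/kg replicate 3. The part of platelets in the Tbxas1 level was not tested.

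**Figure D3:**
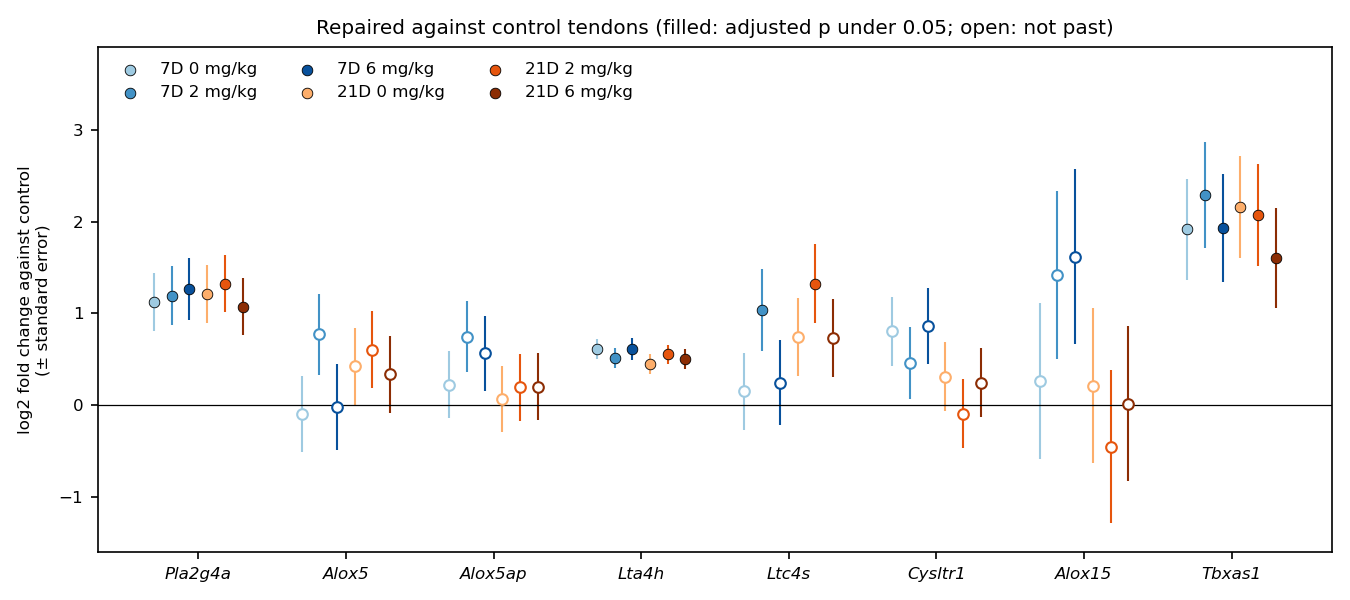
Log2 fold change of the 8 tested members in each repaired group against the control group, with bars of 1 standard error and filled points where the adjusted p was under 0.05. Pla2g4a, Lta4h and Tbxas1 are filled in all 6 groups, Ltc4s in both 2 mg/kg groups, and Alox5, Alox5ap, Cysltr1 and Alox15 in none.

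The other comparisons against control gave similar counts. At 7D 6 mg/kg 3 of 8 members were higher (background 34.1%), at 21D 0 mg/kg 3 (32.2%) and at 21D 6 mg/kg 3 (30.8%), and none was lower in any. The median log2 difference of the 8 members was 0.44 at 7D 0 mg/kg and 0.91 at 7D 2 mg/kg, where that of all genes tested was 0.05 in both. Lta4h, Pla2g4a and Tbxas1 kept their direction and their call under each of the 3 scalings tried (TMM, RLE and library size alone). Scaled to library size alone, the median of all genes rose by 0.64 at 7D 0 mg/kg and 75.6% of all calls were higher, against 50.1% with trimmed-mean scaling (TMM), and Lta4h was then 1.21 above control, still above that median. With the share of skeletal muscle counts as a covariate, the members called were 1 at 7D 0 mg/kg, 0 at 7D 2 and 7D 6 mg/kg, 1 at 21D 0 mg/kg, 3 at 21D 2 mg/kg and 1 at 21D 6 mg/kg. Calls over all genes, in either direction, fell from 71.4 to 48.8% at 7D 0 mg/kg, from 69.7 to 13.0% at 7D 2 mg/kg and from 67.9 to 13.4% at 7D 6 mg/kg. At 21 days they fell from 65.9 to 51.0%, from 69.1 to 56.4% and from 64.1 to 51.2% at 0, 2 and 6 mg/kg. Of the variance of that share 84.3% lay between the 7 groups, so the covariate and the groups cannot be fully told apart.

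Time was compared within each dose, to ask whether the members changed between 7 and 21 days of repair. None of the 8 members passed at 0, 2 or 6 mg/kg, where 5.35, 13.1 and 13.1% of all genes did. At an unadjusted p under 0.05 the counts were 0, 1 and 0, where 2981, 3554 and 3405 of the 12558 genes passed. The 1 was Alox15 at 2 mg/kg, which averaged 38.9 ± 41.4 CPM (SD, n = 4) at 7 days and 10.7 ± 10.4 CPM (n = 5) at 21 days. Its log2 difference was -1.87 (95% interval -3.46 to -0.28, adjusted p = 0.111, edgeR F-test, Benjamini-Hochberg adjusted). It rested on single tendons, since without 21D 2 mg/kg replicate 5 it was -2.68 and passed (adjusted p = 0.0310), and without 7D 2 mg/kg replicate 4 it was -0.79 (adjusted p = 0.534). At 6 mg/kg the 7D Alox15 values of 28.7 to 56.6 CPM lay above all 21D values of 5.84 to 25.4 CPM. At 2 mg/kg Alox5ap (70.2 to 84.7 against 36.6 to 60.7 CPM) and Cysltr1 (9.54 to 11.0 against 5.05 to 7.70 CPM) were also lower at 21 days with no overlap. Fitted on these 2 groups alone both passed (-0.56 each, adjusted p = 0.0271 and 0.0329, edgeR F-test), a fit for which the share over all genes was not computed. With the muscle covariate both turned positive (0.21 and 0.17, adjusted p = 0.819 and 0.853). Of the 25 muscle genes, 25 were called higher at 21 than at 7 days at 2 mg/kg and 25 at 6 mg/kg, against 1 at 0 mg/kg. Among all genes 5.93% were non-overlapping and lower in that comparison and 10.6% at 6 mg/kg. For Lta4h, Pla2g4a and Tbxas1 the 95% intervals at 0 mg/kg were -0.35 to 0.03, -0.44 to 0.61 and -0.65 to 1.13.

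The dose of GSK2894631A was the main variable of the study. Across doses none of the 8 members passed at 7 days, where 2.05% of all genes did, or at 21 days, where 0% did. At an unadjusted p under 0.05 the count was 0 of 8 in both, where 1576 and 1366 of the 12558 genes passed. In single pairs of doses, 2 members had an unadjusted p under 0.05, both at 2 against 0 mg/kg and 7 days. There 1942 of the 12558 genes did, and 2.36% were called after adjustment. For 6 against 0 mg/kg at 7 days no member did, where 746 genes did and 0.39% were called. At 21 days none did either, against 1078 genes for 2 and 810 for 6 against 0 mg/kg, with 0% called in both. At 2 against 0 mg/kg and 7 days Alox5 was 0.87 higher on the log2 scale (95% interval 0.09 to 1.64) and Ltc4s 0.89 higher (0.12 to 1.66). Their adjusted p-values were 0.258 and 0.242 in the edgeR F-test after Benjamini-Hochberg adjustment. The 7-day dose groups also differed in muscle content, with summed muscle genes of 1826 to 12167 CPM at 0 mg/kg, 138 to 171 CPM at 2 mg/kg and 145 to 177 CPM at 6 mg/kg, and 19 and 13 of 25 called lower at 2 and 6 than at 0 mg/kg. With the muscle covariate the differences were 0.22 (adjusted p = 0.801) for Alox5 and 0.60 (0.472) for Ltc4s. All 4 of the 7D 2 mg/kg tendons were above the median 7D 0 mg/kg tendon for both genes, but the ranges overlapped, and at 6 mg/kg Alox5 and Ltc4s were 0.08 (-0.77 to 0.93) and 0.09 (-0.75 to 0.94) above 0 mg/kg. The order of the means was therefore 2, 6 and 0 mg/kg at 7 days for both, and 6 against 0 mg/kg, neighbours in that order, did not differ beyond the spread, while 2 against 6 mg/kg was not tested.

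For Tbxas1, whose substrate prostaglandin H2 is also that of the inhibited enzyme, 6 against 0 mg/kg gave 0.02 (95% interval -1.01 to 1.05) at 7 days and -0.55 (-1.45 to 0.34) at 21 days on the log2 scale, the first becoming -1.13 (adjusted p = 0.265) with the muscle covariate. For Lta4h the same comparisons gave 0.00 (-0.22 to 0.22) and 0.05 (-0.14 to 0.24), the narrowest intervals among the members, and for Pla2g4a 0.14 (-0.46 to 0.75) and -0.14 (-0.66 to 0.39). Alox15 had the widest, 1.35 (-0.32 to 3.02) at 7 days. No member had a dose effect that differed between 7 and 21 days, a test in which 0.39% of all genes passed. These are transcript levels, and no eicosanoid was measured in these files.

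Around the 9 members, 26 of 43 listed genes of the same chemistry were in the table and 25 were tested. All but 1 of the genes in the table could be tested, the exception being the thromboxane receptor Tbxa2r, at group means of 1.25 to 2.49 CPM. At 7D 0 mg/kg 8 rose and 8 fell, where 35.8% of all genes were called higher and 35.6% lower, and the median log2 difference was 0.03. At 7D 2 mg/kg 10 were higher and 8 lower (background 35.8 and 34%), and at 7D 6 mg/kg 8 and 7 (34.1 and 33.8%). In the 21D 0 mg/kg group 9 rose and 10 fell (32.2 and 33.7%), in the 21D 2 mg/kg group 8 rose and 12 fell (33.8 and 35.3%), and with 6 mg/kg 7 rose and 10 fell (30.8 and 33.3%).

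Genes that handle leukotrienes directly moved in both directions. Mgst2, a microsomal glutathione transferase that can also make leukotriene C4, rose from 7.70 ± 1.53 to 33.3 ± 4.95 CPM (SD) at 7D 0 mg/kg, a log2 difference of 2.11 ± 0.22 (SE). Mgst3, its relative, fell from 114 ± 57.9 to 17.2 ± 1.12 CPM. Cotl1, an actin-binding protein that also binds and steadies 5-lipoxygenase, rose from 35.5 ± 14.6 to 365 ± 45.3 CPM, a log2 difference of 3.36 ± 0.36. Dpep2, a dipeptidase that converts leukotriene D4 to E4, rose by 1.81, and Abcc1, an exporter of leukotriene C4, fell by 1.65 on the log2 scale. Adjusted p-values of these 5 at 7D 0 mg/kg ran from 1.09e-08 to 1.41e-06 in the edgeR F-test after Benjamini-Hochberg adjustment, and each was called in the same direction in all 6 repaired groups.

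Among the phospholipases, Pla2g7, the plasma enzyme that inactivates platelet-activating factor, rose from 2.37 ± 0.279 to 107 ± 56.3 CPM (log2 difference 5.50 ± 1.11), and the lysosomal Pla2g15 from 20.8 ± 1.71 to 54.3 ± 9.41 CPM. Another 4 fell at 7D 0 mg/kg, the secreted Pla2g12a by 2.74 and Pla2g5 by 2.57, the cytosolic Pla2g4b by 2.23 and the calcium-independent Pla2g6 by 0.78 on the log2 scale. Pla2g4a, the member, thus rose where its relative Pla2g4b fell. Ptgs2, the inducible cyclooxygenase that supplies Tbxas1 with prostaglandin H2, rose from 3.46 ± 2.11 to 25.4 ± 7.90 CPM at 7D 0 mg/kg, and was 9.51 ± 4.67 CPM at 21D 0 mg/kg, a fall of -1.42 ± 0.35 (SE, log2) between the times (adjusted p = 0.0211, edgeR F-test, Benjamini-Hochberg adjusted). Pla2g12a, Pla2g4b, Mgst3 and Pla2g5 were lower in all repaired groups, as were the skeletal muscle genes, and the part of muscle in their fall was not tested.

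**Figure D4:**
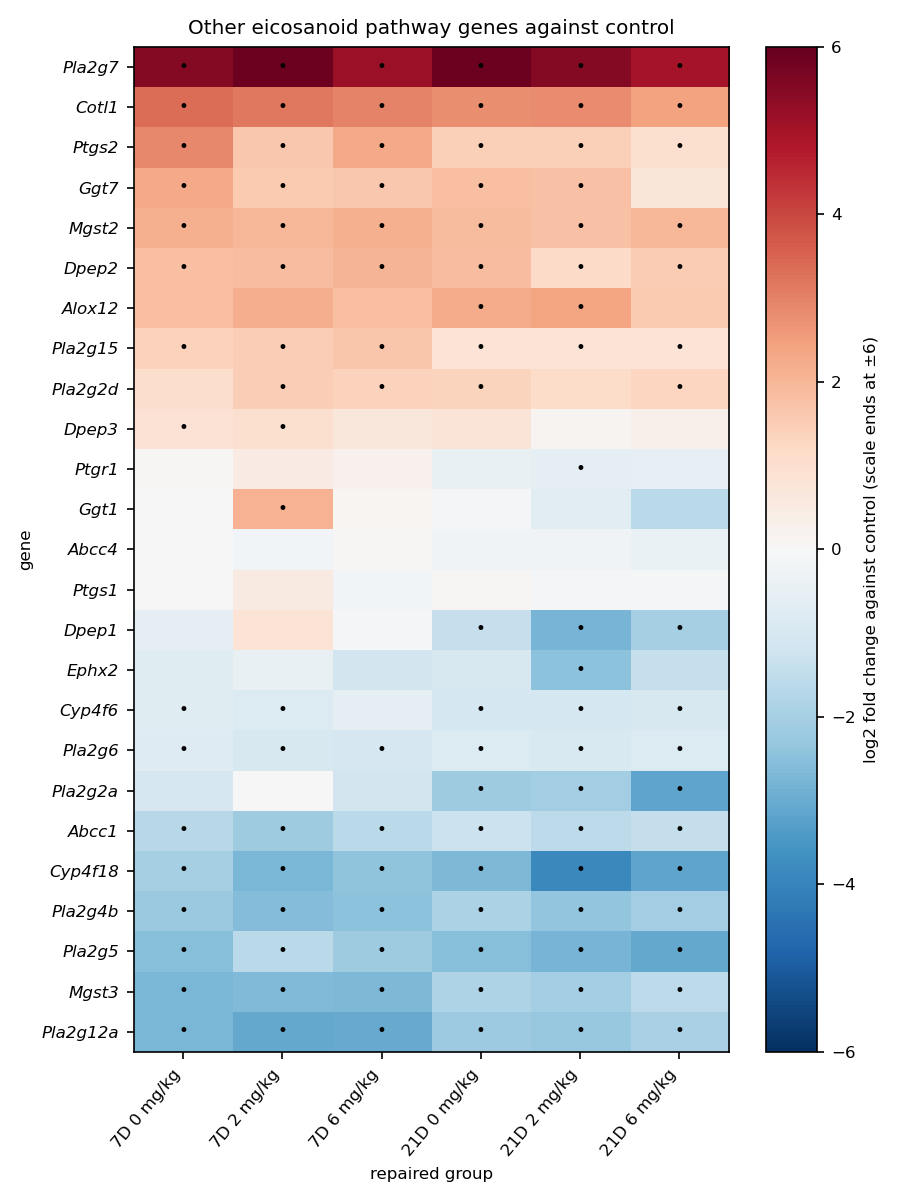
Log2 fold change against control (colour) of the 25 tested genes of the wider eicosanoid list in the 6 repaired groups, ordered by the 7D 0 mg/kg value, with a dot where the adjusted p was under 0.05. Pla2g7, Cotl1 and Mgst2 are higher and Pla2g12a, Mgst3 and Pla2g4b lower in every column.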

How the data were processed

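RNA was sequenced from 30 tendons in 7 groups, assigned from the GEO labels. The deposited values are whole-number counts per gene, which the authors made from reads trimmed with fastp, aligned with STAR to the rat genome build rn6 and counted on an Ensembl annotation, with FastQC and edgeR also named in the submitters' processing notes. Further deposited columns hold the authors' own log2 fold changes and p-values, which were not used, and only gene identifiers, chromosomes and widths were taken from that table. The study's account of removed libraries leaves a different number in the 7D 6 mg/kg group from the 3 labelled samples analysed here. Per the study's methods the right tendon of each rat went to RNA and the animals of a group were separate, so each sample was read as 1 rat.

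Counts were fitted for all 12558 genes averaging 3 CPM or more in some group by edgeR 4.0.16 (R 4.3.3), with TMM scaling, a model of 7 groups and quasi-likelihood F-tests with Benjamini-Hochberg adjustment. Total counts ranged from 12405741 to 49909374, and CPM are scaled by TMM. A prior count of 2 was used for log2 CPM. The 95% intervals are the fitted difference ± the t quantile times its standard error. Genes alike were the 2 with the highest Pearson r of log2 CPM over 30 tendons among those averaging 10 CPM or more in 1 group. Named were all members, the 12 listed related genes with the smallest adjusted p at 7D 0 mg/kg, and related genes called across doses or in the interaction. Members and lists were chosen with earlier results of these data known. Alternatives were other scalings and filters, DESeq2 1.42.0, limma 3.58.1, a replicate block, a muscle covariate, fits on the compared groups and leaving out each tendon. Promoter sequences are RefSeq's in GRCr8 and were not joined to rn6 coordinates. The fitting was tested on simulated counts. No strand setting of the counting is given in the sources used here.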

Additional observations from a re-analysis of the deposited data

Results flagged for a closer look

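Of 45 combinations of a member and a group of 4 or 5 tendons, 4 had a single tendon far from the others, measured as its gap to the nearest tendon over the range of the group. Chance marks about 1 in 20 such groups. Alox15 in 7D 2 mg/kg replicate 4 was 100 CPM against 25.7 CPM in the next tendon (gap 0.841 of the range), and that tendon also had the highest Alas2 of the group, 420 CPM against 230 CPM in the next. Alox15 in 21D 2 mg/kg replicate 5 was 29.2 against 7.21 CPM (0.896), with Alas2 at 206 CPM against 56.2 CPM in the next. Cysltr1 in 21D 2 mg/kg replicate 3 was the low one, at 5.05 against 6.94 CPM (0.711). Ltb4r in 21D 0 mg/kg replicate 2 was 1.16 against 0.876 CPM (0.732), a difference of few counts.

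Dpep1, a dipeptidase that converts leukotriene D4 to E4, had a dose effect that differed between 7 and 21 days (adjusted p = 0.0490, quasi-likelihood F-test of edgeR, Benjamini-Hochberg adjusted over all genes, of which 0.39% passed). It averaged 4.78 ± 1.26, 12.8 ± 4.15 and 6.62 ± 4.66 CPM (SD) at 0, 2 and 6 mg/kg after 7 days. After 21 days it averaged 2.74 ± 1.27, 1.03 ± 0.262 and 1.84 ± 0.575 CPM. Of the 49 genes that passed this test, 13 were among the 25 skeletal muscle genes tested. The part of muscle in the Dpep1 result was not tested, and Dpep1 was not followed under other settings.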

How the results depend on the processing

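For the 8 tested members, 135 of 144 counts of calls under other settings and 158 of 163 counts with a tendon left out stayed within 1.5 times the reported count. These totals include the comparisons between times, between doses and the interaction, where the reported count was 0 and a repeated 0 was scored as unchanged. They therefore say little about how stable the counts against control were. With the muscle covariate the counts against control were 1 at 7D 0 mg/kg, 0 at 7D 2 mg/kg, 0 at 7D 6 mg/kg, 1 at 21D 0 mg/kg and 1 at 21D 6 mg/kg (3 of the 4 at 21D 2 mg/kg remained), and Tbxas1 turned to -0.24 at 7D 2 mg/kg and -0.57 at 7D 6 mg/kg. With limma-trend they were 7 at 7D 2 mg/kg and 5 at 7D 6 mg/kg, where 37.0 and 36.0% of all genes were called higher, and with library size alone 6 at 7D 6 mg/kg, where 57.1% were. Fitted on the compared groups alone, 2 members (Alox5ap and Cysltr1) differed between 21 and 7 days at 2 mg/kg. The share of all genes called was 13.1% there in the main fit and was not computed for this one. Leaving out a tendon gave 3 to 4 calls at 7D 0 mg/kg, 3 to 7 at 7D 2 mg/kg, 3 to 5 at 7D 6 mg/kg, 3 to 5 at 21D 0 mg/kg, 3 to 5 at 21D 2 mg/kg, 2 to 5 at 21D 6 mg/kg and 0 to 1 between times at 2 mg/kg. The highest, 7, 5, 5 and 5 at 7D 2, 7D 6, 21D 0 and 21D 6 mg/kg, came without control replicate 2, where 32.3, 31.5, 29.5 and 28.0% of all genes were called higher. The Cysltr1 difference at 21D 2 mg/kg ran from -0.55 without control replicate 4 to 1.14 without control replicate 3. The causes were not tested. The replicate block moved no member count by more than 1.5 times, 0 members being called across doses with it, and took calls of the dose and time interaction over all genes from 49 to 28. Same-numbered tendons had a median r of 0.00685 over 76 pairs (-0.70 to 0.68) and 6 of 30 tendons correlated best with their own number, so the numbers were not read as a pairing. With 3 control tendons of several-fold spread, differences from control were imprecise for Alox5, Alox5ap, Alox15 and Cysltr1, and Ltb4r was limited by its counts. In control replicates 2, 3 and 4 macrophage sums were 2185, 1609 and 487 CPM, and leukocyte sums 443, 335 and 144 CPM. Alox5, Alox5ap and Alox15 had that order from high to low, and Cysltr1 did not. The part of cell content in this spread was not tested.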

Other observations

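The ratio of Alox5 to Alox5ap was chosen after the values were seen and is given as a description, with no test. The log2 ratio of their CPM was -0.99 ± 0.20 (SD, n = 5) in 7D 0 mg/kg and -0.31 ± 0.18 (n = 5) in 21D 0 mg/kg tendons, with no overlap. At 2 mg/kg it was -0.64 ± 0.23 (n = 4) and -0.26 ± 0.15 (n = 5), which overlapped, and at 6 mg/kg -1.28 ± 0.22 (n = 3) and -0.51 ± 0.17 (n = 5), which did not. Control tendons had CPM ratios of 0.453 to 0.756, across both. Scaling between tendons cancels in this ratio.

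The genes most like the remaining members over 30 tendons were Stat6 (r = 0.95) and Man1a2 (0.94) for Pla2g4a, Anapc2 (0.93) and Copa (0.91) for Lta4h, Adgrg6 (0.90) and AABR07002969.1 (0.89) for Alox5ap, Atp2b1 (0.89) and Exoc6b (0.87) for Alox5, Ehd4 (0.85) and Il1r2 (0.83) for Cysltr1, and Pcdh19 (0.67) and Col7a1 (0.66) for Ltb4r. For Ltc4s they were Alox5 itself (0.80) and Atp2b1 (0.78). These are Pearson r values of log2 CPM, and each pair shares the libraries it was measured in. Over the 27 repaired tendons the r of Pla2g4a with Stat6 was 0.82 and that of Lta4h with Anapc2 was 0.85.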
